A study of Rattus norvegicus with 6 samples.

Results

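The incretin hormones are gut peptides released after a meal that raise insulin secretion and lower blood glucose. The receptor for glucagon-like peptide 1 (GLP-1), the target of the antidiabetic drug liraglutide, couples to the stimulatory G protein Gs, which switches on adenylyl cyclase and raises cyclic AMP. Cyclic AMP acts through protein kinase A (PKA), which phosphorylates the transcription factor CREB, and through the Epac proteins, exchange factors that load the small GTPase Rap with GTP. The 10 genes described here follow that route and were chosen by name. They are the receptors Glp1r, Gipr and Gcgr, the incretin-cleaving peptidase Dpp4, the G protein gene Gnas, the Epac genes Rapgef3 and Rapgef4, the PKA genes Prkaca and Prkar2b, and Creb1. Each was read from a probe set that names 1 gene symbol, the one with the highest mean over the arrays where a gene had several, and all 10 were found among the 18166 genes read in this way.

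RNA was measured on 6 Affymetrix arrays, with 3 Hlirag and 3 diabetic samples. Both groups were male Sprague–Dawley rats made diabetic with a high-fat diet and streptozotocin, a toxin of insulin-producing beta cells, so the diabetic state is common to both and neither group is healthy. Hlirag rats then received the high dose of liraglutide, and diabetic rats received saline. The labels put the age at 17 weeks for every sample. The tissue is labelled cardiac muscle, but the titles begin with "arota" and the free-text descriptions name adipose tissue and an unrelated diet experiment. No source used here ties each array to a rat of its own, so a p-value here reflects the spread among these arrays, and that spread may be technical.

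The labelled tissue was checked against marker genes. All 7 adipocyte markers lay above the background level on every array, with mean log2 signals of 10.17 to 10.66 in Hlirag and 10.07 to 10.44 in diabetic samples. Background, 5.60 on the log2 scale, was set at the 95th percentile of the mean signals of 67 olfactory receptor genes, and 8617 genes (47.4%) lay below it. All 4 smooth muscle markers were also above it on every array. Of the heart genes, Myh6 and Tnnt2, the cardiac myosin heavy chain and troponin T, were above background only on Hlirag replicate 1 and diabetic replicate 1, and Nppa, Bmp10 and Irx4 were below it on every array. Pln, which encodes phospholamban of the sarcoplasmic reticulum, was above it on all 6 arrays (7.18 to 10.13), Ryr2, the ryanodine receptor, on 5, Sln on 4, Tnni3 and Myl7 on 3 each, Myl3 on 2 and Mybpc3 on 1. The arrays of a group were not alike either. Neuron markers averaged 4.84 to 5.13 in Hlirag samples, against 7.83, 10.54 and 5.23 on diabetic replicates 1, 2 and 3, and skeletal muscle markers averaged 5.32 to 5.55 in Hlirag samples, against 11.03, 12.02 and 5.58 on those arrays. Hlirag replicate 3 had the smallest spread over genes, an SD of 1.52 where the other arrays had 1.84 to 1.98. Its olfactory receptor genes had the highest median, 4.45 where the other arrays had 3.29 to 3.81. The same cutoff of 5.60 was used on every array. The part of these array differences in the values of single genes was not tested. In bulk tissue, fewer cells of a type and less RNA per cell cannot be told apart.

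**Figure D1:**
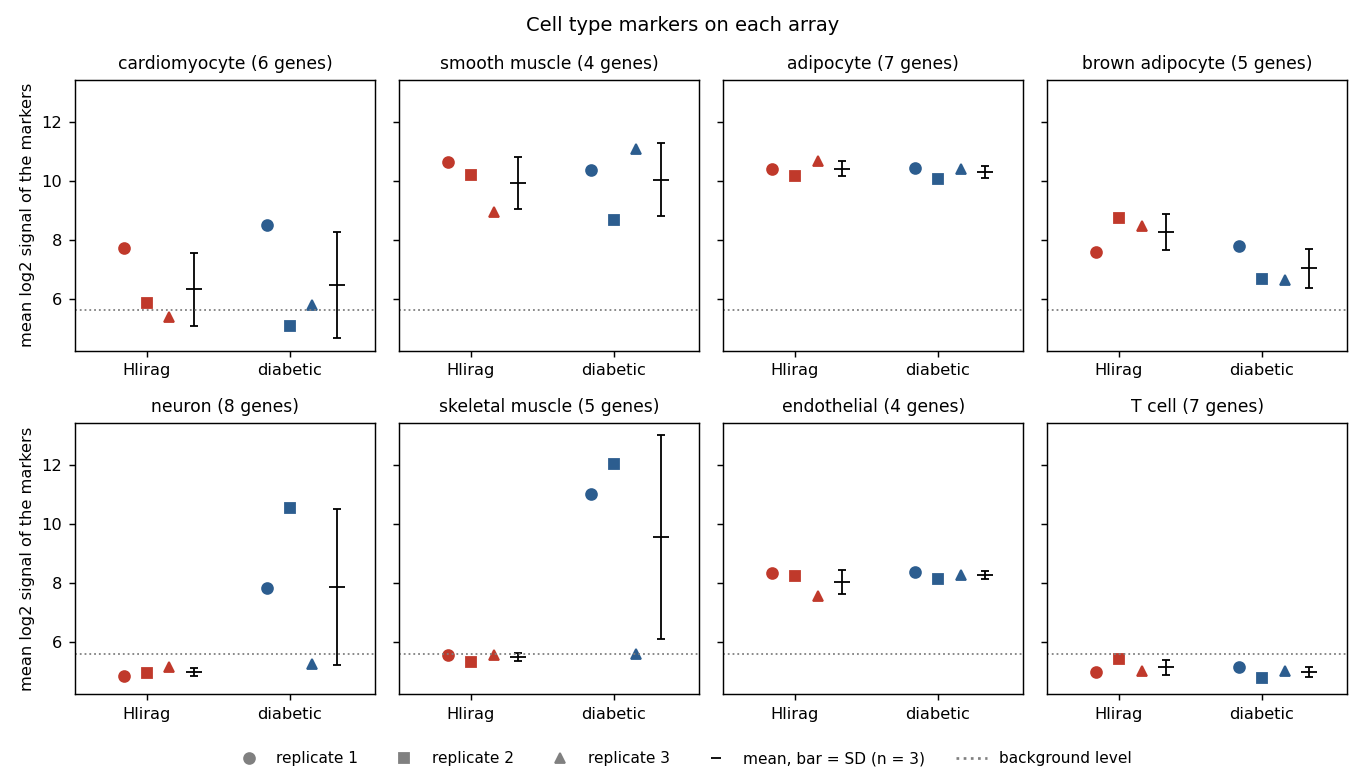
Mean log2 signal of the markers of 8 cell types on each array, Hlirag left of diabetic; points are arrays, bars are mean ± SD (n = 3), and the dotted line is the background level of 5.60. Adipocyte markers sit between 10.07 and 10.66 on all 6 arrays, while neuron markers reach 10.54 and skeletal muscle markers 12.02 on diabetic replicate 2.

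Hlirag was compared with diabetic by limma over all 18166 genes, and each log2 fold change is given as Hlirag minus diabetic. The criterion of the study is a fold change over 1.5 and p under 0.05, before adjustment. The study took that p from a one-way analysis of variance, the methods' test, and here it is from limma. The criterion was met by 2 of the 10 genes, Rapgef3 and Rapgef4, both lower in Hlirag. Over all genes it was met by 687 (3.78%), of which 393 were lower (2.16%) and 294 higher (1.62%). The split moved with the scaling, to 383 lower and 128 higher with each array centred on its median probe set, which put the median of all genes at -0.14, and to 340 lower and 410 higher with each centred on its median gene. No gene had an adjusted p under 0.05 (0%; limma, Benjamini-Hochberg over all genes), while 752 had an unadjusted p under 0.05. The methods' test gave 690 at that level and also 0 after adjustment. With its p in the criterion 236 genes were called, and the majority turned, with 89 lower and 147 higher in Hlirag. Of the 10 genes, only Rapgef3 was called with that p. The lowest adjusted p of any gene was 0.780, so the calls below rest on the criterion and on the 95% interval of each difference, both from limma. The values of the 2 groups did not overlap for 2 of the 10 genes, the same pair, and for 11.1% of all genes. With 3 arrays in each group, the design cannot give a two-sided exact permutation p below 0.1.

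The median log2 fold change of the 10 genes was -0.25, against 0.00 for all genes, and 7 of the 10 were negative. Brighter genes leaned the same way as a whole. The 9549 genes at or above background had a median of -0.19, and 71.5% of them were negative. The share of negative values among the 10 is therefore near that of measurable genes in general. The sets are not fully alike, as 4 of the 10 had a mean below background. The part of the small spread of Hlirag replicate 3 in this lean was not tested.

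**Figure D2:**
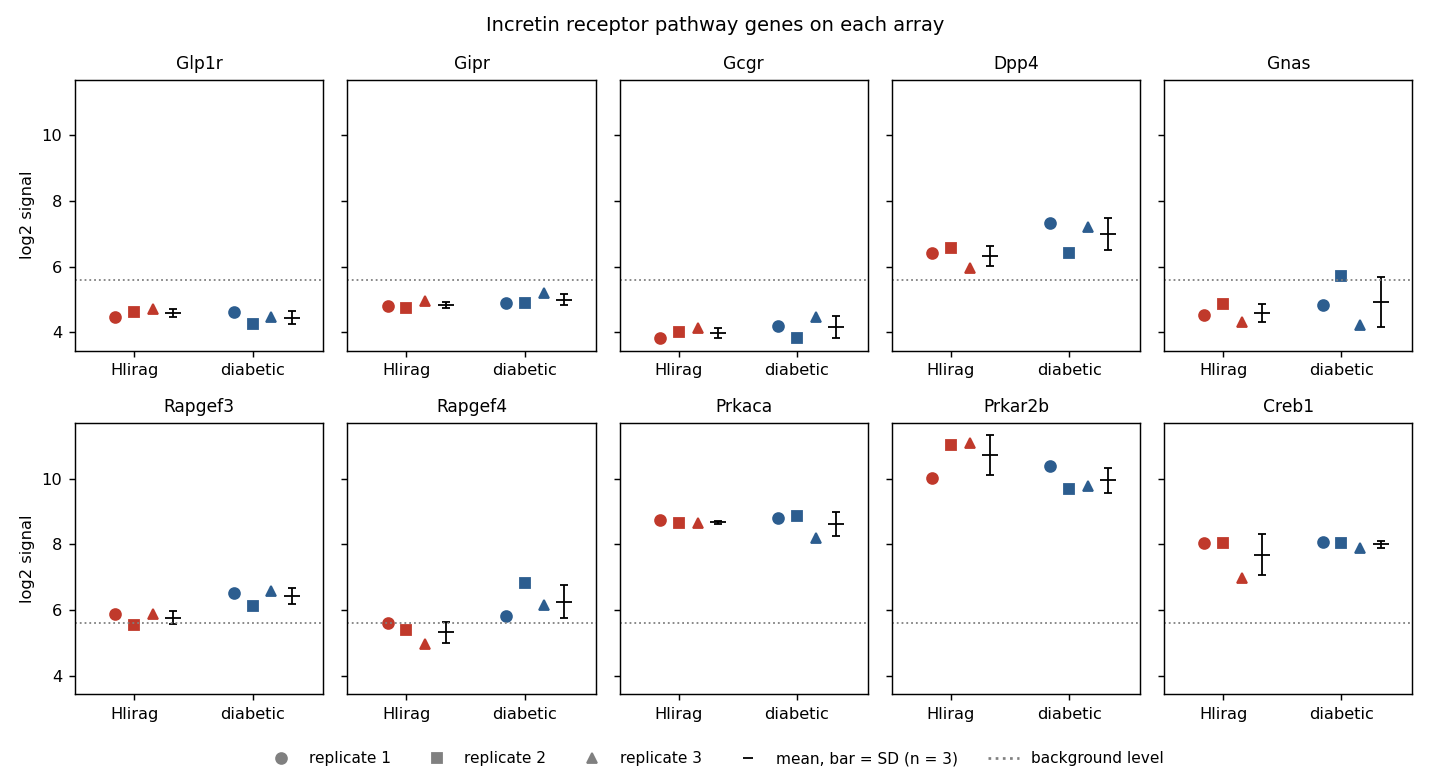
Log2 signal of the 10 genes on each array, Hlirag left of diabetic; points are arrays, bars are mean ± SD (n = 3), and the dotted line is the background level of 5.60. The 3 receptors lie below the line on all 6 arrays, and the groups are apart only for Rapgef3 and Rapgef4.

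The receptors were not detected above background. Glp1r, the receptor that liraglutide binds, had log2 signals of 4.46, 4.62 and 4.71 in Hlirag samples, against 4.63, 4.25 and 4.46 in diabetic samples. All 6 values were below 5.60 and the groups overlapped, with means of 4.60 ± 0.13 in Hlirag and 4.45 ± 0.19 in diabetic samples (SD, n = 3 each). The log2 fold change was 0.15 (SE 0.22, 95% interval -0.36 to 0.66; adjusted p = 0.825, limma), and its sign turned to -0.039 after quantile normalization.

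Gipr, the receptor of the other incretin, glucose-dependent insulinotropic polypeptide, read 4.81, 4.75 and 4.94 in Hlirag samples, against 4.90, 4.89 and 5.19 in diabetic samples. Gcgr, the receptor of glucagon, read 3.83, 4.004 and 4.12 in Hlirag samples, against 4.21, 3.81 and 4.46 in diabetic samples. Both genes were below background on every array, and their groups overlapped. Signals this low bound the level from above and cannot show a change in expression, so no fold is given for the 3 receptors beyond the fitted difference. That difference was -0.16 on the log2 scale for Gipr (SE 0.21, interval -0.66 to 0.34) and -0.18 for Gcgr (SE 0.25, interval -0.75 to 0.40).

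Dpp4, the peptidase that clips the first residues from GLP-1 and ends its action, was measurable on all 6 arrays. Its log2 signals were 6.42, 6.58 and 5.97 in Hlirag samples, against 7.34, 6.43 and 7.21 in diabetic samples. Diabetic replicates 1 and 3 lay above all Hlirag values, but diabetic replicate 2 lay within their range. The log2 fold change of -0.67 (SE 0.31, interval -1.40 to 0.06) did not meet the criterion. Without diabetic replicate 2 it was -0.95 and met it.

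Gnas encodes the alpha subunit of Gs, and its locus also makes other transcripts from further promoters. The brighter of its 2 probe sets read 4.53, 4.87 and 4.32 in Hlirag samples, against 4.82, 5.72 and 4.21 in diabetic samples. Only diabetic replicate 2 was above background, and the groups overlapped (log2 fold change -0.34, SE 0.39, interval -1.25 to 0.57). The other probe set read 4.76, 4.82 and 5.18 in Hlirag samples, against 4.54, 4.28 and 4.70 in diabetic samples, with no overlap and a difference of 0.42 the other way, which did not meet the criterion. The direction of Gnas thus depended on the probe set, and neither probe set lay above background in most samples. Which transcript of the locus each probe set measures is not given in the sources used here. These values may therefore not be those of the Gs alpha transcript.

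The exchange factors for Rap alone met the criterion among the 10 genes. Differences of Dpp4 (-0.67) and Prkar2b (0.77) were larger than that of Rapgef3 (-0.65), but their intervals took in 0. Rapgef3 encodes Epac1, the form widely found in heart, vessels and fat, and Rapgef4 encodes Epac2, known from brain and pancreatic islets. Their start regions are shown because both genes were lower in Hlirag, so that the 2 promoters can be set side by side. The sequences run from 250 bases before the start to 50 after it in RefSeq on build GRCr8, Rapgef3 at chr7:130776767-130777066 on the minus strand and Rapgef4 at chr3:77216797-77217096 on the plus strand. Capitals mark GC boxes (GGGCGG on either strand, some overlapping):
Rapgef3: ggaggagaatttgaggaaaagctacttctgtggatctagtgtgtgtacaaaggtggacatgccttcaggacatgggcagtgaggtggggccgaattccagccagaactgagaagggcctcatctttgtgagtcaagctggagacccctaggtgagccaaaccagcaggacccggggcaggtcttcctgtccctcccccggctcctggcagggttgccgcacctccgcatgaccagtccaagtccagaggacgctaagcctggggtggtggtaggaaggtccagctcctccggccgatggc
Rapgef4: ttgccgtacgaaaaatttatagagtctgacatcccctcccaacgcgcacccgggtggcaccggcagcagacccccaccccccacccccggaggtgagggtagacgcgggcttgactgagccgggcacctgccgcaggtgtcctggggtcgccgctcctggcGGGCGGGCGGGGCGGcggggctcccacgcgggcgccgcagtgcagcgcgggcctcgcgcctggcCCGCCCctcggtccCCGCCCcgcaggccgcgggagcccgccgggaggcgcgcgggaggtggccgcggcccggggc

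The Rapgef4 window held 5 GC boxes, 78% G and C and 40 CG pairs. The Rapgef3 window held 0 GC boxes, 59.67% G and C and 8 CG pairs. Over all 33469 promoters in the table, 33.1% held a GC box, and the medians were 51.7% G and C and 7 CG pairs. Rapgef4 thus has a CG-rich start and Rapgef3 a more ordinary one. Neither window held TGACG, the core of the cyclic AMP response element that CREB binds.

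Rapgef3 had log2 signals of 5.88, 5.53 and 5.88 in Hlirag samples, against 6.52, 6.13 and 6.59 in diabetic samples. All diabetic values lay above all Hlirag values, and Hlirag replicate 2 was just under background. Means were 5.77 ± 0.21 in Hlirag and 6.41 ± 0.25 in diabetic samples (SD, n = 3 each). The log2 fold change was -0.65 (SE 0.24, interval -1.20 to -0.09; adjusted p = 0.780, limma). The direction held without each array in turn, but the criterion was missed without Hlirag replicate 2 (-0.53), diabetic replicate 1 (-0.59) or diabetic replicate 3 (-0.56). It was also missed with the arrays centred on their median gene (-0.59).

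Rapgef4 read 5.59, 5.38 and 4.96 in Hlirag samples, against 5.81, 6.82 and 6.13 in diabetic samples. The groups did not overlap, and every Hlirag value was below background while every diabetic value was above it. Means were 5.31 ± 0.32 in Hlirag and 6.25 ± 0.52 in diabetic samples (SD, n = 3 each). The fitted log2 fold change was -0.94 (SE 0.32, interval -1.69 to -0.20; adjusted p = 0.780, limma). With Hlirag known only to lie below 5.60, the diabetic mean was at least 1.575-fold above the Hlirag mean. That bound takes no account of the spread among arrays, and the interval reaches -0.20. With values raised to background the difference was -0.66 and missed the criterion. It was also missed without Hlirag replicate 3 (-0.77), without diabetic replicate 2 (-0.66) and in the methods' test.

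The highest Rapgef4 value was on diabetic replicate 2, the array with the highest neuron and skeletal muscle markers. The other arrays did not share 1 order. Rapgef4 was lower on diabetic replicate 1 (5.81) than on diabetic replicate 3 (6.13), while the neuron marker mean ran the other way. Within Hlirag, Rapgef4 fell from replicate 1 to 3 (5.59, 5.38 and 4.96) while the neuron marker mean rose (4.84, 4.95 and 5.13). Of the 8 neuron markers, 7 were lower in Hlirag at the criterion, and their mean was 7.83, 10.54 and 5.23 on diabetic replicates 1, 2 and 3. Over the 6 arrays, the genes closest to Rapgef4 were Ankrd52 (Pearson r = 0.999), Ppp2r5b (0.99), which encodes a regulatory subunit of a protein phosphatase, and Dnm1 (0.99), which encodes dynamin of nerve terminals. These were the highest of 9548 genes above background, of which 73 had an r over 0.95, and the points share libraries and marker content. On diabetic replicate 3, both Rapgef4 (6.13) and the neuron marker mean (5.23, under background) were above every Hlirag value. The markers Snap25 (6.66, against 5.49 to 5.89 in Hlirag samples), Syt1, Stmn2 and Nefl were also above every Hlirag value there. Uchl1 (6.19, against 5.68 to 6.43 in Hlirag samples), Tubb3, Th and Dbh lay within the Hlirag range. Only Snap25 and Uchl1 were above background on that array. Without diabetic replicates 1 and 2 together, the differences were -0.82 for Rapgef4 and -0.82 for Rapgef3, and neither met the criterion with 1 diabetic array left, assumed to vary like the others. The parts of nerve and skeletal muscle tissue in the Rapgef4 result were not tested.

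The PKA genes showed no difference at the criterion. Prkaca, which encodes the alpha catalytic subunit, read 8.73, 8.63 and 8.65 in Hlirag samples, against 8.80, 8.87 and 8.20 in diabetic samples. The 3 Hlirag arrays were nearly equal and lay inside the diabetic range. Its log2 fold change was 0.05 (SE 0.25, interval -0.53 to 0.63), and its sign turned to -0.090 after median centring over all probe sets and to -0.16 without diabetic replicate 3.

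Prkar2b encodes the RII beta regulatory subunit, the main one of fat and brain. It read 10.01, 11.02 and 11.10 in Hlirag samples, against 10.38, 9.67 and 9.77 in diabetic samples. Hlirag replicates 2 and 3 were above all diabetic values, and Hlirag replicate 1 was below diabetic replicate 1. The log2 fold change was 0.77 (SE 0.36, interval -0.06 to 1.61), and the criterion was not met. It was met without Hlirag replicate 1 (1.12) and without diabetic replicate 1 (0.99).

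Brown adipocyte markers had the same split of arrays as Prkar2b. Their mean was 7.57, 8.73 and 8.47 in Hlirag samples, against 7.79, 6.68 and 6.62 in diabetic samples. Of 5 such markers, 3 were higher in Hlirag at the criterion, Ucp1, Cidea and Otop1, and 1 was below background on every array. The 7 general adipocyte markers had a median log2 fold change of 0.04, and none met the criterion. The part of brown fat content in the Prkar2b difference was not tested.

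Creb1, the transcription factor at the end of the PKA branch, is known to be controlled in part by response elements in its own promoter, so that promoter is shown. It lies at chr9:73397259-73397558 on the plus strand of GRCr8 in RefSeq, the first of 2 listed for the gene, with TGACG in capitals, searched on both strands:
Creb1: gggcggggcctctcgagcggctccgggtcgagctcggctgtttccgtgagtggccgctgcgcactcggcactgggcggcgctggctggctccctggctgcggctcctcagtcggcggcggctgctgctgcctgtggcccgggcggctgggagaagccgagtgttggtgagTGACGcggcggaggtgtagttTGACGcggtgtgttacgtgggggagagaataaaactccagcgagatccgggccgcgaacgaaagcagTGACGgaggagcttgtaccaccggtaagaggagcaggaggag

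The window held 3 copies of TGACG, which also forms the front of the full element TGACGTCA, and 0 copies of the full element. TGACG was found in 21.2% of all 33469 promoters and TGACGTCA in 1.83%. Of the 9 genes with a promoter in the table, 13 promoters in all, 4 genes held TGACG in a promoter (Glp1r, Gnas, Prkaca and Creb1) and 0 held the full element. A match describes letters only.

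Creb1 read 8.04, 8.04 and 6.96 in Hlirag samples, against 8.06, 8.05 and 7.88 in diabetic samples. Hlirag replicate 3, the array with the smallest spread over genes, was low, and the other 5 arrays lay within 7.88 to 8.06. The log2 fold change was -0.32 (SE 0.33, interval -1.08 to 0.45), and it was 0.042 without Hlirag replicate 3. A second probe set read 7.13, 6.71 and 6.18 in Hlirag samples, against 7.23, 6.73 and 7.17 in diabetic samples, again lowest on Hlirag replicate 3, with a difference of -0.37.

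**Figure D3:**
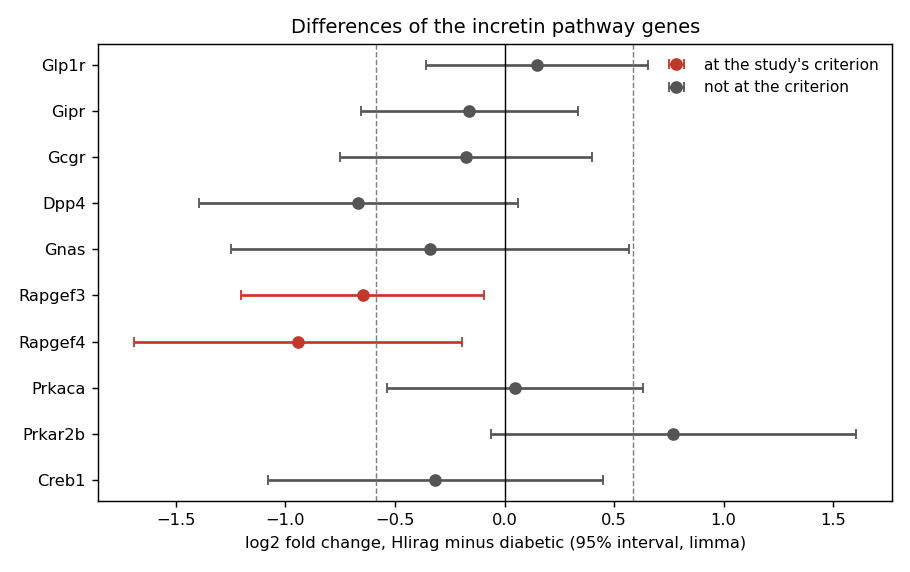
Log2 fold change, Hlirag minus diabetic, of the 10 genes with its 95% interval from limma (n = 3 each); dashed lines mark a 1.5-fold change. Only the intervals of Rapgef3 (-1.20 to -0.09) and Rapgef4 (-1.69 to -0.20) leave out 0.

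The rest of the pathway was read from 12 lists of 148 genes, of which 133 were analysed. At the criterion 4 were higher and 5 lower in Hlirag, 6.77% of them. The share was 3.78% of all genes and 5.13% of genes at or above background. The list of 14 CREB targets alone held 2 of the higher and 4 of the lower genes. In the other lists only Adrb3, Mme and Rapgef1 met the criterion. The groups did not overlap for 19 (14.3%), against 11.1% of all genes. Their median log2 fold change was -0.21, close to the -0.19 of all genes above background, though 39 of the 133 lay below background.

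Upstream of cyclic AMP few genes differed. Adrb3, the beta-3 adrenergic receptor of fat, was higher in Hlirag, the only one of 11 other Gs-coupled receptors at the criterion. It read 9.11, 9.14 and 8.76 in Hlirag samples, against 8.54, 8.40 and 8.28 in diabetic samples, without overlap. Its log2 fold change was 0.60 (SE 0.22; adjusted p = 0.780, limma), just past the 1.5-fold line, and it missed the criterion without any 1 of the arrays other than Hlirag replicate 3, with values of 0.53 to 0.67, and after median centring over all probe sets (0.46).

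None of 14 class B receptors, their peptides and RAMP partners met the criterion. Sctr, the secretin receptor, had the lowest p among them, with a log2 fold change of -0.89 that met the criterion only without diabetic replicate 3 (-1.41). Among 7 peptidases, Mme, neprilysin, which degrades GLP-1 and natriuretic peptides, was higher in Hlirag. It read 8.16, 9.18 and 8.80 in Hlirag samples, against 8.13, 8.0003 and 7.62 in diabetic samples, and Hlirag replicate 1 was barely above diabetic replicate 1. Its log2 fold change was 0.80 (SE 0.31; adjusted p = 0.780, limma), and the criterion was missed without any array other than Hlirag replicate 1 (0.57 to 0.90), in the methods' test, with values raised to background and after median centring over all probe sets (0.66).

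The 7 receptor kinases and arrestins, 17 G protein subunits, 9 adenylyl cyclases and 15 phosphodiesterases held 0 genes at the criterion. The lowest p in each belonged to Arrb2, an arrestin (log2 fold change -0.57), Gnao1, the Go alpha subunit (-1.07), Adcy4, a cyclase (-0.42), and Pde10a, a phosphodiesterase (-0.46). Gnao1 was highest on diabetic replicate 2, at 10.98, where neuron markers were highest, against 8.97 and 9.30 on the other diabetic arrays. Median log2 fold changes of these lists were -0.37, -0.24, 0.05 and -0.30.

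The other PKA subunits and inhibitors also held 0 genes at the criterion, though their median of -0.71 over 6 genes was the lowest of the 12 lists. Pkia, an inhibitor peptide of PKA, read 7.54, 7.15 and 5.29 in Hlirag samples, against 8.18, 9.55 and 7.12 in diabetic samples, with overlap and its lowest value on Hlirag replicate 3. Its log2 fold change of -1.62 (SE 0.74) did not meet the criterion in the main fit. It met it without Hlirag replicate 1 (-2.06) or diabetic replicate 3 (-2.21). Akap12, an anchoring protein of PKA, had the lowest p of 13 such genes, with -1.15 (SE 0.52), and met the criterion without the same arrays (-1.57 and -1.48). Both genes also met it with the replicate number as a block.

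The Rap list held the GTPases that Epac proteins load with GTP and other regulators of Rap. All 13 genes had negative log2 fold changes, from -0.88 to -0.06, with a median of -0.22. The count was 12 of 13 after quantile normalization or centring on the median gene. Of all genes, 49.8% were negative. Of genes at or above background, 71.5% were negative, with a median of -0.19, and 3 of the 13 lay below background. Only Rapgef1, which encodes a Rap exchange factor that cyclic AMP does not gate, met the criterion. It read 7.12, 6.76 and 7.06 in Hlirag samples, against 7.80, 7.78 and 7.66 in diabetic samples. All diabetic values lay above all Hlirag values. The log2 fold change was -0.77 (SE 0.22; adjusted p = 0.780, limma), and the criterion was met without each single array. It was missed only without diabetic replicates 1 and 2 together (-0.68). Skeletal muscle and neuron markers averaged highest on those 2 arrays, and their part in the Rapgef1 difference was not tested.

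**Figure D4:**
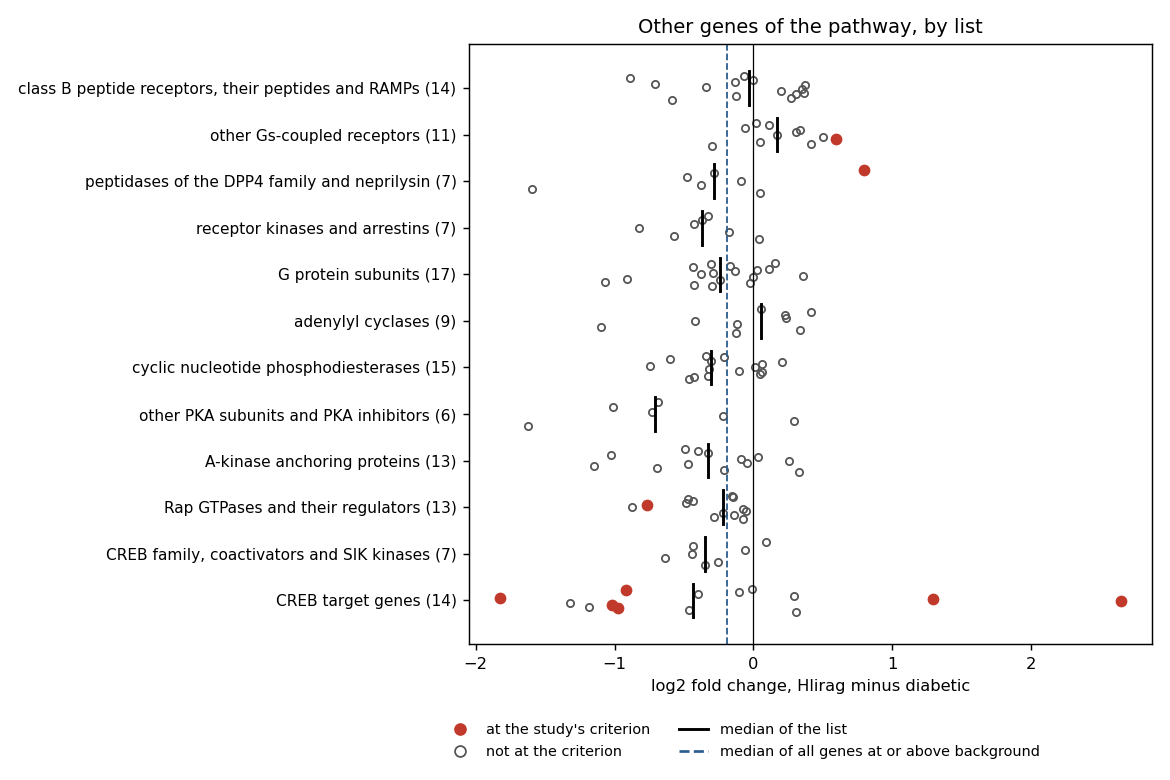
Log2 fold change, Hlirag minus diabetic, of the 133 other pathway genes by list, with list size in parentheses; filled points met the criterion, black bars are list medians and the dashed line is the median of all genes at or above background, -0.19. The CREB targets reach from -1.82 to 2.65, and every Rap gene lies left of 0, as do 71.5% of all genes at or above background.

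Among 7 genes of the CREB family, its coactivators and SIK kinases, none met the criterion. Crem, a close relative of Creb1, had the lowest p, with a log2 fold change of -0.63 (SE 0.28) and no overlap of the groups. Of 14 target genes of CREB, 2 were higher and 4 lower in Hlirag at the criterion, 42.9% of the list, against 3.78% of all genes. The list was drawn up with earlier results of these data known. Its median was -0.43, and 71.4% of its genes were negative, near the 71.5% of all genes at or above background. The genes at the criterion thus lay in both directions.

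The 3 NR4A orphan nuclear receptors, rapid targets of CREB, moved in opposite directions. Nr4a2 read 8.95, 8.56 and 8.54 in Hlirag samples, against 7.50, 7.50 and 7.17 in diabetic samples, a log2 fold change of 1.29 (SE 0.23; adjusted p = 0.780, limma). Nr4a1 read 10.43, 9.80 and 10.18 in Hlirag samples, against 8.59, 7.07 and 6.79 in diabetic samples (log2 fold change 2.65, SE 0.47; adjusted p = 0.780, limma). Neither gene's groups overlapped, and both met the criterion in every alternative run. Nr4a3 was lower in Hlirag, with 6.57, 6.47 and 6.14 in Hlirag samples, against 8.67, 6.84 and 9.14 in diabetic samples. Its groups did not overlap, but diabetic replicate 2 was close to Hlirag, and the difference of -1.82 (SE 0.55; adjusted p = 0.780, limma) missed the criterion in the methods' test and with values raised to background.

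The other targets at the criterion, named after their values were seen, were lower in Hlirag. Sik1, a kinase that restrains CREB coactivators, had a log2 fold change of -0.92 (SE 0.29) with no overlap, and fell short of the criterion without diabetic replicate 3 (-0.70) or Hlirag replicate 2 (-0.82). Fosb, a subunit of the AP-1 factor, had -1.02 (SE 0.40) and Egr1, an immediate early zinc finger factor, -0.98 (SE 0.42). The groups of both overlapped because Hlirag replicate 1 was high, at 7.95 for Fosb and 10.14 for Egr1. Both met the criterion only without Hlirag replicate 1 among the arrays left out in turn, and both missed it in the methods' test and with values raised to background. Egr1 missed it also after median centring over all probe sets, with dim genes left out and with an intensity trend. Junb (-1.32, SE 0.58) and Fos (-1.19, SE 0.52) had larger differences than Fosb and Egr1 but missed the criterion. Ppargc1a, a coactivator of mitochondrial genes and a target of CREB, had a log2 fold change of -0.10 (SE 0.54).

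The genes whose values ran closest to Glp1r over the 6 arrays were Tnip1 (Pearson r = 0.98), Nectin2 (0.96) and Lpin1 (0.96), of 9549 genes above background. Of these genes 4 had an r over 0.95. As Glp1r itself stayed below background, with values spanning 0.46 on the log2 scale, this likeness describes small shifts between arrays.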

How the data were processed

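The deposited files hold log2 values, 1 per probe set and array, that the authors made from the scanned arrays with Expression Console. The summarisation and normalization are not given in the sources used here. Their range fits a log2 scale. Array medians over the 36685 probe sets ran from 4.96 to 5.39 in Hlirag and from 4.94 to 5.12 in diabetic samples, so the centring is unknown. Of the probe sets, 18511 named 1 gene symbol, 575 several and 17599 none in the array annotation, and each of 18166 genes was read from its brightest probe set of that kind (291 had more than 1). No further filter or normalization was applied.

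limma 3.58.1 in R 4.3.3 (lmFit, eBayes, group as the only term) compared Hlirag with diabetic, with Benjamini-Hochberg adjustment over all genes. The study's criterion (p under 0.05, fold change over 1.5) was applied to its unadjusted p. The methods' test is the one-way analysis of variance that the study names. The fit was tested on simulated data with known changes. The number of arrays limits the precision. The 10 genes, the pathway and marker lists and the tests were chosen with earlier results of these data known. Named pathway genes are, per list, up to 3 genes at the criterion with the lowest p, or else the gene with the lowest p. For Glp1r and the member with the lowest p, the 3 genes with the highest Pearson r are named.

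Alternatives were the methods' test, median centring, quantile normalization, values raised to background, leaving out dim genes or single arrays, an intensity trend, other uses of the probe sets, and a replicate block. Promoter sequences come from RefSeq (GRCr8). Tables and figures used numpy 2.4.6, pandas 2.3.3, scipy 1.17.1 and matplotlib 3.10.9.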

Additional observations from a re-analysis of the deposited data

How the results depend on the processing

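The 10 genes lay at the criterion in 2 cases, and in 1 case in the methods' test, with values raised to background and with arrays centred on the median gene, an alternative chosen after seeing the data. With single arrays left out it was 1 to 3, and without diabetic replicates 1 and 2 it was 0. Groups that did not overlap, 2 of the 10, became 3 to 4 with single arrays left out and 9 without diabetic replicates 1 and 2, where fewer samples leave less to overlap. The 9 pathway genes became 5 in the methods' test, 5 with values raised, 4 to 23 with single arrays left out and 4 without diabetic replicates 1 and 2. The count over all genes, 687, became 236 in the methods' test, 448 with dim genes left out, 181 with values raised, 226 to 2018 with single arrays left out and 286 without diabetic replicates 1 and 2. It was highest without Hlirag replicate 1.

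With the replicate number as a block (replicate block), counts were 1117 genes, 17 pathway genes and 2 of the 10 genes. The 17 included Gnao1, Pkia, Akap12 and Crem, which the main fit did not call. Deviations of same-numbered arrays correlated at 0.32, 0.04 and 0.15, and those of differently numbered arrays at -0.32 to 0.16. The main fit did not take the numbers to pair the samples, and these values do not settle it.

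The sign turned for Glp1r after quantile normalization (-0.039), for Gnas with the mean of its probe sets (0.038), with its other probe set (0.42), without diabetic replicate 2 (0.061) and without diabetic replicates 1 and 2 (0.37), for Prkaca after median centring (-0.090) and without diabetic replicate 3 (-0.16), for Creb1 without Hlirag replicate 3 (0.042), and for Sctr without diabetic replicates 1 and 2 (0.17). With single arrays left out, Gnas ran from -0.69 to 0.061, Prkaca from -0.16 to 0.17 and Creb1 from -0.50 to 0.042. With all arrays and the deposited values, none of these genes met the criterion in limma. No sign turned for Rapgef3 or Rapgef4. The filter on dim genes left out Glp1r, Gipr, Gcgr, Gnas and Pde10a, so it gave no value for them. The cause of these shifts was not tested.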
